A study of Homo sapiens with 9 samples.

Results

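The activin, TGF-beta and BMP pathway was followed through 39 genes in the human breast cancer cell line MDA-MB231 after forced expression of RAI2 or of a form named RAI2-4A. The genes were taken by symbol from the array's probe annotation, which held 63 probes for 38 of them (none for BMPR1A). Of these probes 39, for 30 genes, lay above background on at least 3 arrays and were tested among 12438 genes in all. Background on an array ended at the one-sided 95% limit of the spread around the peak of its dim probes. A gene was called at a p under 0.05 in limma, adjusted over all genes tested, and differences are of log2 values unless named as intensities.

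All cells, controls included, were transduced with retrovirus and selected for 4 days in puromycin at 2 µg/ml. There were 3 groups of 3 single-colour Illumina bead arrays: empty vector, RAI2 (retinoic acid induced 2, a known partner of the corepressor CtBP) and RAI2-4A. What 4A denotes is not given in the labels, nor whether each replicate was its own culture, so the p-values cover only the spread between these samples, which may be technical. In such bulk RNA, fewer cells of a type and less RNA per cell cannot be told apart. RAI2 and RAI2-4A were each set against vector and against each other.

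Activins, TGF-betas and BMPs are secreted dimers that bind paired type II and type I receptor kinases. Activin and TGF-beta receptors phosphorylate SMAD2 and SMAD3, BMP receptors phosphorylate SMAD1, SMAD5 and SMAD9, and both kinds of SMAD act in the nucleus with SMAD4. Follistatin (FST) is a secreted protein that binds activin and keeps it from its receptors. In MDA-MB231 cells, TGF-beta signalling is known for its part in bone metastasis in mouse models.

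The RAI2 probe followed the labels, with a deposited intensity of 90.1 ± 4.97 (SD, n = 3) in vector, above background on 0 of 3 arrays, 598 ± 36.8 (SD, n = 3) in RAI2 and 1059 ± 101 (SD, n = 3) in RAI2-4A cells. It was higher on every RAI2-4A array (955 to 1158) than on any RAI2 array (559 to 632). Form and level of RAI2 thus vary together between these groups, and their parts were not tested. Of 10 markers of the line 9 were above background on all arrays (VIM, CD44 and AXL among them), and KRT18 was not. Of 8 luminal or hormone receptor markers, ESR1, PGR and FOXA1 were above background on no array and TFF1 on 1. CDH1 and GATA3 were above it on 8 arrays, and ERBB2 and EPCAM on all. No leukocyte, endothelial or packaging-cell marker was above background on all arrays, and of 5 fibroblast markers COL1A2 and LUM were. Background thresholds were intensities of 99.8 to 104, exceeded by 20030 to 22678 probes per array. Replicate 1 of vector and replicate 2 of RAI2 and of RAI2-4A stood apart from their groups together, with correlations of 0.565 to 0.672 between their deviations from group means. Calls that they change, and some of the differences that they move, are given with and without them.

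FST was the only pathway member called in any comparison, and it was lower in RAI2 than in RAI2-4A cells. Its brighter probe (ILMN_1700081) read 4118, 6042 and 6654 in vector replicates 1 to 3. It read 2817, 2543 and 3870 in RAI2 cells and 5535, 6862 and 5603 in RAI2-4A cells. All 3 RAI2 arrays lay below all 6 others, while vector and RAI2-4A arrays overlapped. Group means were 5604 ± 1323 (SD, n = 3) in vector, 3077 ± 701 in RAI2 and 6000 ± 747 in RAI2-4A cells.

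Between RAI2 and RAI2-4A the log2 difference of FST was -0.99 (SE 0.19, 95% CI -1.39 to -0.58), a 1.98-fold lower value in RAI2 cells (limma, adjusted p = 0.0438). This was 1 of 30 members tested, against 0.378% of all genes called in that comparison (0.193% higher and 0.185% lower). Members were listed with earlier results of these data known, so this share is not independent support. The SE and interval rest on limma's moderated variance, which is drawn toward that of all genes. FST varied between replicates with an SD of 0.30, larger than for 95.7% of genes, so its SE is smaller than its own replicates would give. Fitted on these 2 groups alone, FST had an adjusted p of 0.00870 in limma, with 69 genes called in place of 47. RAI2 and RAI2-4A arrays of the same number shared deviations, though the labels name no pairing. With the replicate number added as a block to that fit the adjusted p for FST was 0.0114 in limma, with 98 genes called. That block was added after the data were seen and rests on correlations in the same data, so it is not independent support. Without the 3 arrays that stood apart the difference was -0.76 (limma, adjusted p = 0.0387). The call held in 12 of 23 alternative settings, whose adjusted p in limma ran from 0.00334 to 0.241. With arrays left out singly it held in 3 of 9. Leaving out vector replicate 1 (0.00334) or 3 (0.0366) kept the difference at -0.99 and changed only the estimate of spread. Among the RAI2 and RAI2-4A arrays, the call held only without RAI2 replicate 3 (0.0318). It did not survive leaving out vector replicate 2 (0.0587), RAI2 replicate 1 (0.221) or 2 (0.241) or RAI2-4A replicate 1 (0.108), 2 (0.213) or 3 (0.138). It was also lost with every probe tested on its own (0.124), with probes averaged per gene (0.130), with a background set to each array's mode (0.160), with a trended, robust variance (0.188) and with a stricter filter (0.0525).

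Against vector, FST in RAI2 cells differed by -0.86 (SE 0.19, 95% CI -1.27 to -0.46) and did not pass (limma, adjusted p = 0.0865). It passed without vector replicate 1 (limma, adjusted p = 0.00754), without the 3 arrays that stood apart (0.00958) and with array weights (0.00747). In RAI2-4A cells FST differed from vector by 0.12 (SE 0.19, 95% CI -0.29 to 0.53, limma, adjusted p = 0.994). That interval does not show equal levels, and without the 3 arrays that stood apart the difference was -0.19.

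The dimmer FST probe (ILMN_1712896), annotated to another RefSeq transcript of the gene, read 534, 849 and 947 in vector cells, 438, 410 and 488 in RAI2 cells and 634, 960 and 723 in RAI2-4A cells. RAI2 was again the lowest group, with no RAI2 array reaching any other array, while vector and RAI2-4A had close means of 777 ± 216 and 772 ± 169 (SD, n = 3). Tested on its own it differed by -0.81 (SE 0.22) between RAI2 and RAI2-4A (limma, adjusted p = 0.406) and by -0.80 (SE 0.22) between RAI2 and vector (limma, adjusted p = 0.405), neither past the threshold. The probes may share transcripts and are not independent measurements.

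**Figure D1:**
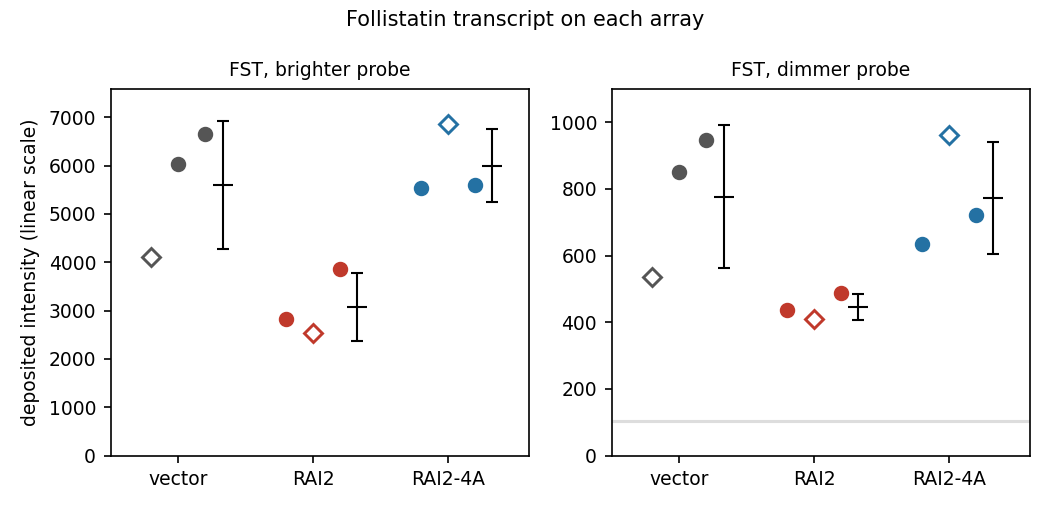
Deposited intensity of FST (linear axis from 0) on each of 9 arrays for its brighter and dimmer probe. Points are arrays in the order of their replicate numbers, open diamonds the 3 arrays that stood apart, black bars the mean ± SD of 3 arrays and the grey band the range of background thresholds. On the brighter probe the RAI2 arrays sit between 2543 and 3870, below all 6 other arrays, and vector replicate 1 is the lowest of its group at 4118.

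The promoter windows of FST, as the member that was called, and of TGFB2, as the member that varied most between arrays, are shown as RefSeq gives them on GRCh38.p14, 250 bases before to 50 after the start. The FST window is chr5:53480379-53480678 and the TGFB2 window chr1:218345086-218345385, both on the plus strand. Capitals mark AGAC or GTCT, the core letters that SMAD3 and SMAD4 are known to bind, read on both strands.
FST: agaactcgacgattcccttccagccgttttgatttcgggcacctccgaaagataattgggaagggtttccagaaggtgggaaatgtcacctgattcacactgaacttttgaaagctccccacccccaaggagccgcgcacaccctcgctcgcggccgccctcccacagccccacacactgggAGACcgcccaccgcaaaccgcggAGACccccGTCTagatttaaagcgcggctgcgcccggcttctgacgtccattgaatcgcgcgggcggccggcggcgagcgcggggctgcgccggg
TGFB2: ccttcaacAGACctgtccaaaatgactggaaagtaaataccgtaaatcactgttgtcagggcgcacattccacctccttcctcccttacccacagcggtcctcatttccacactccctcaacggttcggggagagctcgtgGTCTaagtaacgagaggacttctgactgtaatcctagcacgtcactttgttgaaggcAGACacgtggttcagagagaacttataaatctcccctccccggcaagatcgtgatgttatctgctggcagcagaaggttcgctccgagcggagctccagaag
Each window held 3 matches. Of 35116 promoter windows of the same length, 84.0% held at least 1 match and 30.5% held 3 or more, so both are common counts. The palindrome GTCTAGAC, which joins both forms, was in neither window and in 0.202% of all. Windows were found for 37 of the 39 members.

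Activin subunits and the other follistatin relatives were not called. INHBB, the activin and inhibin beta B subunit, read 329, 547 and 504 in vector, 309, 381 and 434 in RAI2 and 298, 343 and 353 in RAI2-4A cells. RAI2 and RAI2-4A overlapped each other, and vector overlapped them through its replicate 1 only. It differed from vector by -0.47 in RAI2-4A (SE 0.19, limma, adjusted p = 0.994) and by -0.29 in RAI2 cells (SE 0.19, limma, adjusted p = 0.988). Without vector replicate 1 these were -0.71 and -0.53 (limma, adjusted p = 0.163 and 0.251), again not past the threshold. Without the 3 arrays that stood apart they were -0.74 and -0.55 (limma, adjusted p = 0.197 and 0.272). INHBA, the beta A subunit, was above background on 1 of 9 arrays and was not tested. FSTL3, a follistatin-like activin binder, differed by 0.01 between RAI2 and vector, with a 95% CI of -0.37 to 0.38. FSTL1, a more distant secreted relative, differed by -0.04, with a 95% CI of -0.27 to 0.18. Both were above background on all arrays.

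Among TGF-beta ligands, TGFB2 was set by single arrays. It read 458, 110 and 111 in vector, 115, 142 and 111 in RAI2 and 107, 217 and 107 in RAI2-4A cells. The array that stood apart was the highest of its group in all 3 groups, which held for TGFB2 alone among the 30 members (3.33%) and for 6.24% of all genes. In the other direction, those arrays were the lowest of all 3 groups for 6 members (20.0%, against 18.0% of all genes), ACVR1, BMPR2, ID1, NOG, SMAD7 and TGFBR2. Between replicates the log2 values of TGFB2 varied with an SD of 0.88, larger than for 99.7% of genes. The group differences of TGFB2 did not pass, at -0.60 (SE 0.50) for RAI2 and -0.43 (SE 0.50) for RAI2-4A against vector (limma, adjusted p = 0.988 and 0.994). Without the 3 arrays the first was 0.04.

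TGFB3 read 115, 118 and 118 in vector, 132, 122 and 119 in RAI2 and 127, 124 and 139 in RAI2-4A cells. Vector lay below both other groups without overlap, within a narrow range close to background. Its largest difference was 0.18 (SE 0.10) for RAI2-4A against vector (limma, adjusted p = 0.994). TGFB1 had a single probe, not above background on any array (81.4 to 98.4). Of the latent TGF-beta binding proteins, which hold the ligands in the matrix, LTBP1 was not kept. LTBP2 read 172, 181 and 158 in vector, 216, 180 and 151 in RAI2 and 181, 148 and 154 in RAI2-4A cells, with overlap between all groups. Its largest difference was 0.19 (SE 0.15) between RAI2 and RAI2-4A (limma, adjusted p = 1.00).

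BMP4 was above background only in vector replicate 1, at 185, and lay between 75.4 and 98.8 on the other 8 arrays. The second kept probe of PMEPA1 (ILMN_2309156) was highest in each group on the array that stood apart, at 176 in vector, 160 in RAI2 and 137 in RAI2-4A cells. The brighter PMEPA1 probe did not follow it. Whether the deviation of these arrays came from the cells or the hybridisation was not tested.

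**Figure D2:**
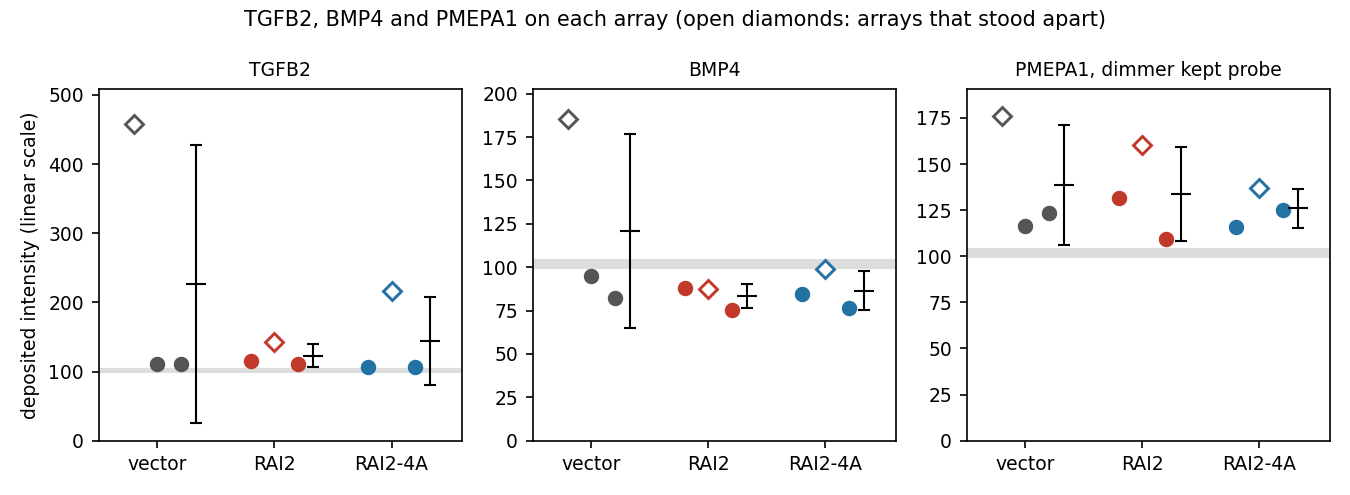
Deposited intensity (linear axis from 0) of TGFB2, BMP4 and the dimmer kept PMEPA1 probe on each array, with open diamonds for the 3 arrays that stood apart, mean ± SD of 3 arrays in black and the background thresholds as a grey band. TGFB2 and BMP4 reach 458 and 185 in vector replicate 1, and most other arrays lie close to the band.

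Of the BMP ligands and antagonists, NOG (noggin, which binds BMPs) alone was kept. It read 211, 253 and 240 in vector, 270, 258 and 261 in RAI2 and 248, 219 and 240 in RAI2-4A cells, so RAI2 arrays lay above both other groups. The differences were small, at 0.19 (SE 0.11) from vector (limma, adjusted p = 0.974) and 0.18 (SE 0.11) from RAI2-4A (limma, adjusted p = 1.00). BMP2, BMP4 and GREM1 (a secreted BMP antagonist) were above background on at most 2 arrays by any probe.

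All 9 receptors and coreceptors with a probe were tested, and none was called. TGFBR2, the type II receptor for TGF-beta, came closest. Its brighter probe (ILMN_2384241) read 2085, 2163 and 2209 in vector, 3307, 2519 and 2753 in RAI2 and 2702, 2174 and 2267 in RAI2-4A cells. The RAI2 arrays lay above all vector arrays, and RAI2-4A overlapped both. The difference between RAI2 and vector was 0.40 (SE 0.12, 95% CI 0.14 to 0.67) and did not pass (limma, adjusted p = 0.391). Its second probe (ILMN_1726245) differed by 0.39 (SE 0.14), also without passing (limma, adjusted p = 0.772 over all probes).

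BMPR2, the type II receptor for BMPs, read 390, 494 and 506 in vector, 570, 510 and 511 in RAI2 and 560, 520 and 568 in RAI2-4A cells, with vector below both without overlap. Its differences from vector were 0.21 (SE 0.12, limma, adjusted p = 0.973) and 0.27 (SE 0.12, limma, adjusted p = 0.994), and without vector replicate 1 they were 0.09 and 0.14. The second BMPR2 probe (ILMN_2070896) overlapped between all groups, at 310, 473 and 455 in vector, 604, 488 and 440 in RAI2 and 600, 396 and 524 in RAI2-4A cells. ACVR1, a type I receptor for BMPs, read 599, 785 and 860 in vector, 837, 796 and 863 in RAI2 and 734, 669 and 752 in RAI2-4A cells. RAI2 arrays lay above RAI2-4A arrays, by 0.22 (SE 0.13, limma, adjusted p = 1.00). From vector RAI2 differed by 0.17, and by 0.02 without vector replicate 1. The activin receptors ACVR1B, ACVR2A and ACVR2B, the TGF-beta receptors TGFBR1 and TGFBR3, and BAMBI, a pseudoreceptor without a kinase, differed from vector by -0.03 to 0.13 in either group. ACVR2B was above background on only 3 of 9 arrays. A second kept probe of ACVR2A (ILMN_1670912) gave -0.11 in RAI2 and -0.18 in RAI2-4A cells, opposite in sign to the brighter probe.

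**Figure D3:**
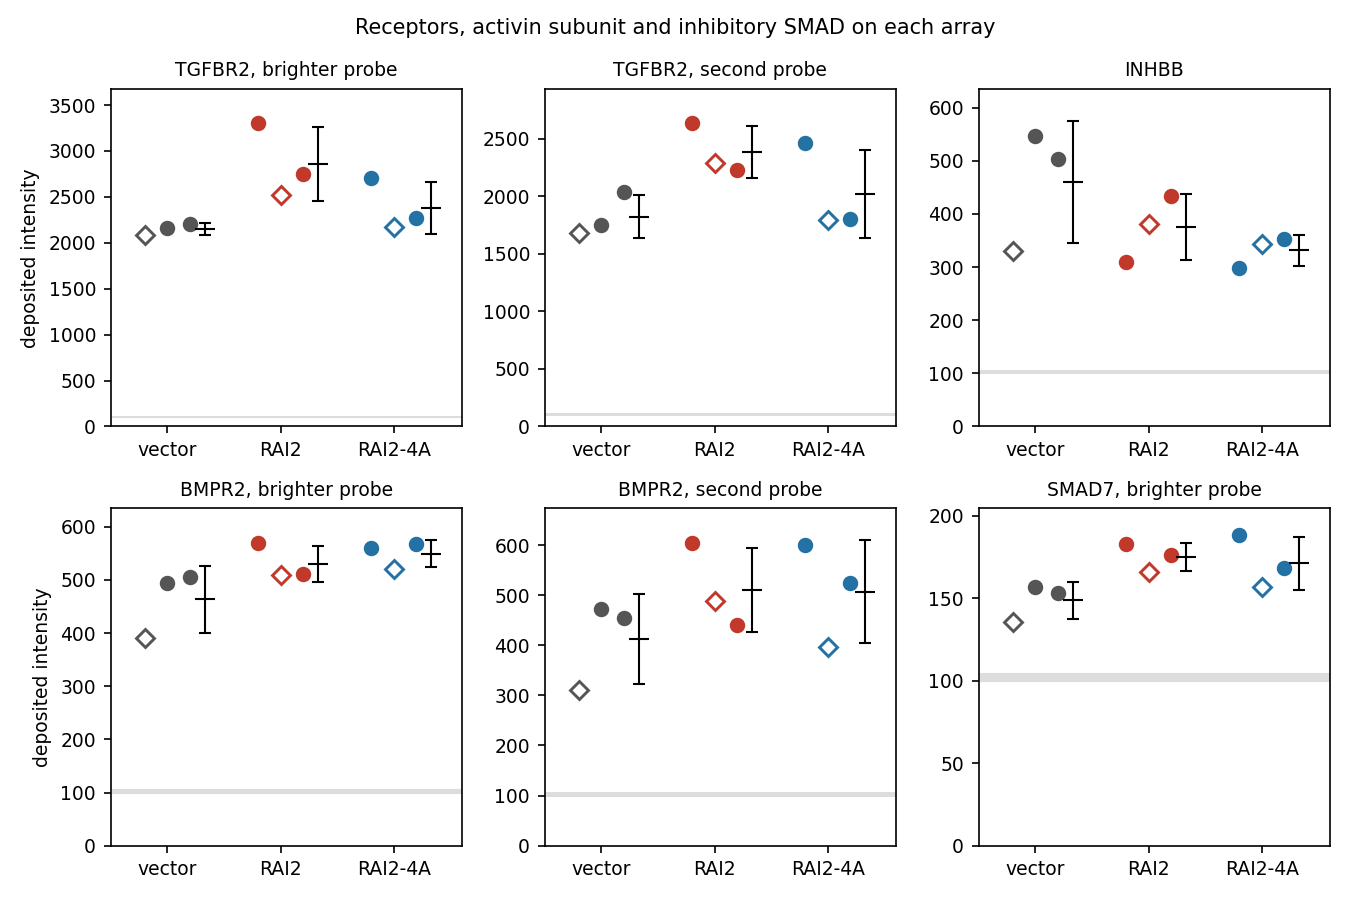
Deposited intensity (linear axis from 0) on each array for the receptors TGFBR2 and BMPR2 with 2 probes each, the activin subunit INHBB and the inhibitory SMAD7. Symbols, bars and band show arrays (open diamonds: the 3 that stood apart), mean ± SD of 3 arrays and background thresholds. On the brighter probes of TGFBR2, BMPR2 and SMAD7 all RAI2 arrays lie above all vector arrays, and none of these differences passed the test.

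The SMAD signal transducers differed little. SMAD3 differed by 0.11 (95% CI -0.20 to 0.41) between RAI2 and vector, the shared partner SMAD4 by 0.18 (95% CI -0.10 to 0.46) and SMAD5 by 0.06 (95% CI -0.16 to 0.29). SMAD2 differed by 0.02 and SMAD9 by -0.10, while the second kept SMAD9 probe (ILMN_1815385) gave 0.03. None of these 5 was called in any comparison, and SMAD1 was not kept on either of its probes.

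Negative regulators were all 6 tested and none was called. SMAD7, an inhibitory SMAD that is induced by TGF-beta and acts against its receptors, read 136, 157 and 153 in vector, 183, 166 and 176 in RAI2 and 189, 157 and 168 in RAI2-4A cells. Vector lay below RAI2 without overlap, and below RAI2-4A only at the margin, since the nearest arrays of those groups both rounded to 157. Its differences from vector were 0.27 (SE 0.11, limma, adjusted p = 0.756) and 0.23 (SE 0.11, limma, adjusted p = 0.994). The second kept SMAD7 probe, above background on 5 arrays, gave -0.06 and 0.02.

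PMEPA1, a TGF-beta-induced membrane protein that restrains SMAD signalling, read 236, 241 and 221 in vector, 309, 264 and 251 in RAI2 and 280, 217 and 256 in RAI2-4A cells on its brighter probe. RAI2 lay above vector without overlap, by 0.26 (SE 0.13, limma, adjusted p = 0.902). Its dimmer kept probe gave -0.06. SMAD6, the inhibitory SMAD of the BMP branch, read 117, 158 and 149 in vector, 121, 127 and 133 in RAI2 and 153, 126 and 152 in RAI2-4A cells, with overlap throughout. Between RAI2 and RAI2-4A it differed by -0.20 (SE 0.14, limma, adjusted p = 1.00). SKIL, a nuclear corepressor of SMADs, and the ubiquitin ligases SMURF1 and SMURF2 differed from vector by -0.07 to 0.13.

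Of the ID genes, which encode inhibitors of helix-loop-helix factors and are textbook BMP targets, ID1 differed by 0.01 (95% CI -0.25 to 0.28) between RAI2 and vector. ID3 read 579, 673 and 676 in vector, 581, 542 and 684 in RAI2 and 650, 684 and 709 in RAI2-4A cells. The groups overlapped, and its largest difference was -0.19 (SE 0.12, limma, adjusted p = 1.00) between RAI2 and RAI2-4A. ID2 was above background on at most 2 arrays by either probe.

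**Figure D4:**
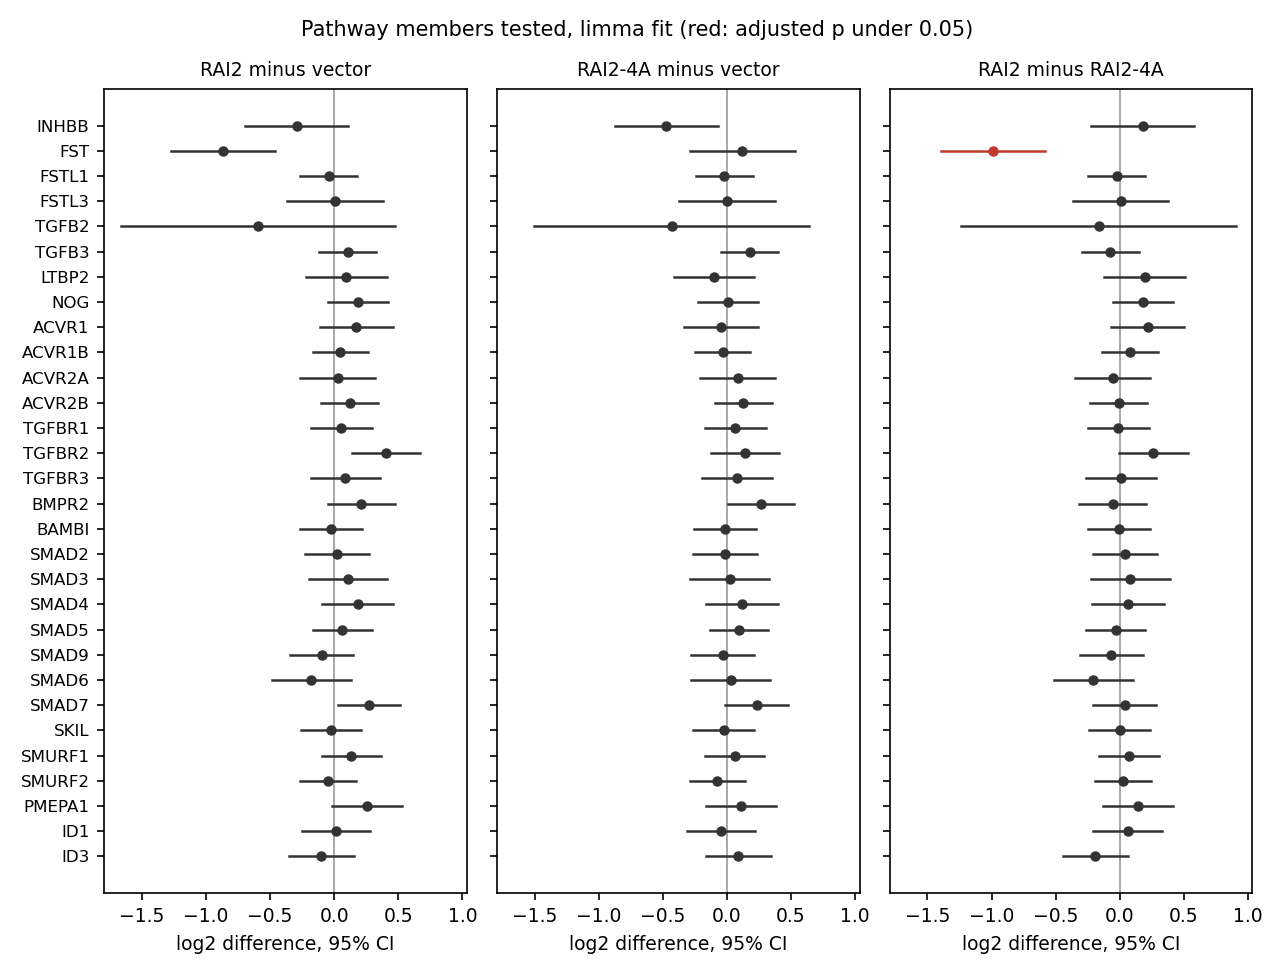
Log2 differences of the 30 members tested, with 95% confidence intervals from limma, for RAI2 minus vector, RAI2-4A minus vector and RAI2 minus RAI2-4A. Genes are ordered by role, and red marks an adjusted p under 0.05, reached by FST between RAI2 and RAI2-4A at -0.99. TGFB2 has the widest intervals, from -1.67 to 0.48 for RAI2 minus vector.

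Counted over the pathway, 0 of 30 members passed between RAI2 and vector in limma, where 0.418% of all genes did. The same count was 0 between RAI2-4A and vector, where 0.0884% of genes did (0.0643% higher and 0.0241% lower). At an unadjusted p under 0.05 there were 3 members (FST, TGFBR2 and SMAD7) between RAI2 and vector, against 5.9% of all genes, and 2 (INHBB and BMPR2) between RAI2-4A and vector, against 4%. Between RAI2 and RAI2-4A there was 1 (FST), against 4.82%. ACVR2B was above background on no vector array and was kept through RAI2 and RAI2-4A arrays, so it is left out of the counts of groups that do not overlap, and the other 29 members are set beside the 11751 genes above background in every group. The 3 RAI2 and 3 vector arrays did not overlap for 7 of these 29 members (24.1%), against 9.37% of those genes and 10.1% of all genes tested (6.26% higher and 3.81% lower in RAI2). Those were FST, lower in RAI2, and TGFB3, TGFBR2, SMAD7, BMPR2, NOG and PMEPA1, higher. The count takes the brightest probe of each gene. Members were listed with earlier results of these data known, so shares of members without overlap are not independent support. Second kept probes of FST and TGFBR2 also separated RAI2 from vector, while those of SMAD7, BMPR2 and PMEPA1 overlapped. Between RAI2-4A and vector 3 of 29 did not overlap, TGFB3, SMAD7 and BMPR2, all higher (10.3%, against 7.07% of genes above background in every group and 7.99% of all, 4.86% higher and 3.13% lower). These comparisons share the vector arrays, of which replicate 1 had the lowest value of its group for TGFB3, TGFBR2, SMAD7, BMPR2, NOG and FST. That low value enlarges the differences of members higher than vector, while their lack of overlap rests on the highest vector array. For FST, replicate 1 is the vector array nearest to RAI2. Between RAI2 and RAI2-4A the 3 members of 29 without overlap (10.3%, against 10.5% of genes above background in every group and 11.3% of all, 5.8% higher and 5.51% lower) were FST, ACVR1 and NOG.

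The median log2 difference over the 30 members was 0.05 between RAI2 and vector, 0.02 between RAI2-4A and vector and 0.01 between RAI2 and RAI2-4A. Over all 12438 genes the same medians were 0.02, 0.02 and 0.00. Members varied between replicates with a median SD of 0.14 on the log2 scale, against 0.15 for all genes. TGFB2 (0.88), FST (0.30), INHBB (0.29) and FSTL3 (0.27) varied most.

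**Figure D5:**
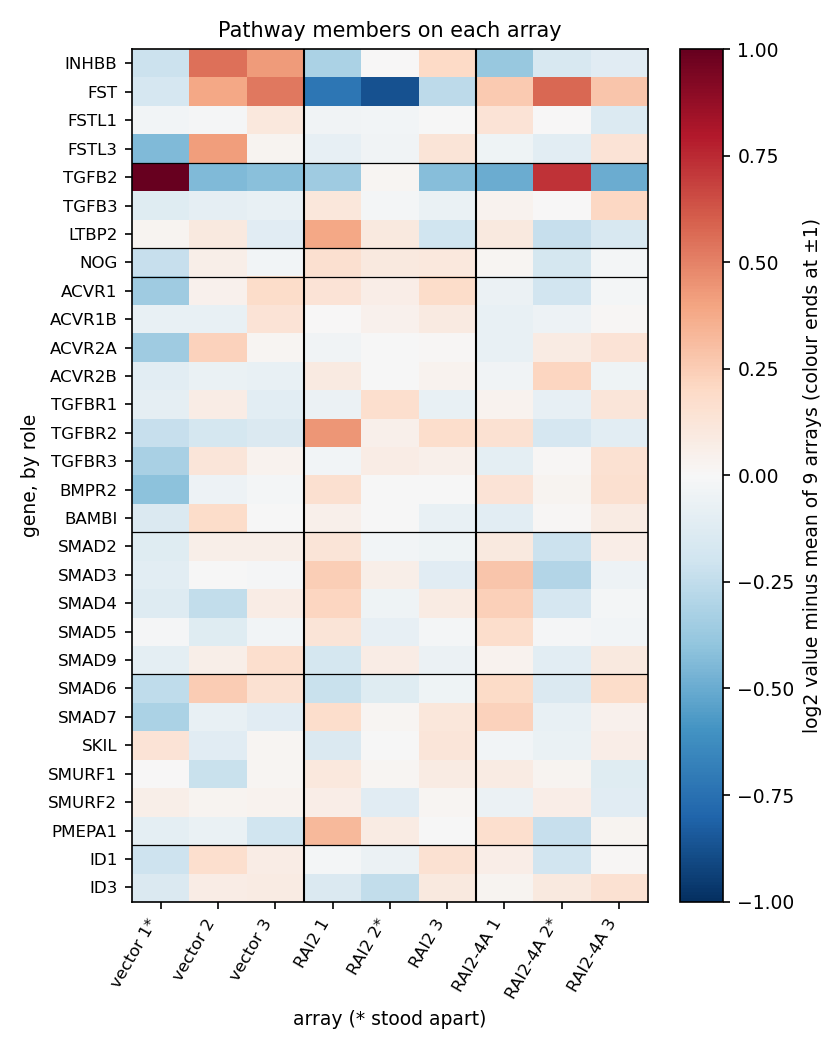
Log2 value of each of the 30 members on each array minus its mean over the 9 arrays, with genes ordered by role and arrays by group (asterisks: the 3 that stood apart). The colour scale ends at ±1, which TGFB2 exceeds in vector replicate 1. FST is below its mean on the 3 RAI2 arrays and, by less, on vector replicate 1. TGFB2 is highest on vector replicate 1 and RAI2-4A replicate 2.

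Beyond the members, 102 further genes of the pathway were listed, of which 66 were kept. Between RAI2 and vector 2 of the 66 were called, both higher and both among 20 TGF-beta target genes, while 0 of 12 ligands and antagonists, 0 of 4 receptors, 0 of 7 latency and activation genes, 0 of 19 intracellular regulators and 0 of 5 BMP targets were. Of all genes 0.418% were called and 0.322% were called higher. These 2, TGFBI and THBS1, were already known to be higher when the lists were drawn up, so their presence is not independent support.

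TGFBI, a secreted matrix protein named for its induction by TGF-beta, read 370, 325 and 319 in vector, 867, 919 and 718 in RAI2 and 672, 428 and 521 in RAI2-4A cells. The 3 groups did not overlap. It rose by 1.36 in RAI2 cells (SE 0.16, limma, adjusted p = 0.00141), a call kept in all 22 alternative settings. In RAI2-4A cells it differed from vector by 0.69 (SE 0.16, limma, adjusted p = 0.317), and passed without the 3 arrays that stood apart (0.0198) and with array weights (0.0297). Between RAI2 and RAI2-4A it differed by 0.67 (SE 0.16, limma, adjusted p = 0.158), and passed without RAI2-4A replicate 1 (0.0394). Without the 3 arrays that stood apart that difference was 0.43 (0.465).

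THBS1, thrombospondin 1, which can activate latent TGF-beta, read 2390, 2557 and 2756 in vector, 5607, 4439 and 3957 in RAI2 and 4069, 3165 and 3376 in RAI2-4A cells. Vector lay below both other groups. It rose by 0.86 in RAI2 cells (SE 0.14, limma, adjusted p = 0.0149). It did not pass once vector replicate 2 was left out (0.0636), nor without the first (0.0829) or second (0.0687) RAI2 replicate, with a background set to each array's mode (0.0798) and with every probe tested on its own (0.0538).

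No wider gene was called in the other comparisons. Of the TGF-beta targets, the adaptor protein gene NEDD9 differed from vector by 0.50 in RAI2-4A cells (SE 0.11, limma, adjusted p = 0.313), and by 0.32 with probes averaged per gene. All RAI2 arrays of NEDD9 (195 to 203) also lay above all vector arrays (153 to 179), without a call. The smooth muscle gene TAGLN differed by 0.52 between RAI2 and RAI2-4A (SE 0.15, limma, adjusted p = 0.426), which was 0.24 with probes averaged per gene and ranged from 0.38 to 0.62 with arrays left out singly. It passed in the fit of these 2 groups with the replicate block (0.0317) and not without the block (0.263). Among ligands, the stress-induced GDF15 differed from vector by 0.26 in RAI2-4A cells (SE 0.14), the activin relative GDF11 by -0.19 in RAI2 cells (SE 0.10), and AMH by 0.17 in RAI2 (SE 0.15) and 0.23 in RAI2-4A cells (SE 0.15). TWSG1, an extracellular BMP modulator, differed by -0.24 between RAI2 and RAI2-4A (SE 0.15). The integrin subunit ITGAV, whose dimers can release TGF-beta from its latent form, differed by 0.27 in RAI2 cells (SE 0.20), and RUNX2, a bone transcription factor induced by BMPs, by 0.28 in both (SE 0.19). The ubiquitin ligase WWP1 differed by 0.24 in RAI2 cells (SE 0.12), and CTBP1, a corepressor reported as a partner of RAI2, by -0.18 between RAI2 and RAI2-4A (SE 0.11). None of these passed. With arrays left out singly, RUNX2 ranged from 0.11 to 0.40 in RAI2 and from 0.11 to 0.48 in RAI2-4A cells, ITGAV from 0.10 to 0.40, WWP1 from 0.14 to 0.30, GDF15 from 0.16 to 0.41, and AMH from 0.11 to 0.27 in RAI2 and 0.14 to 0.39 in RAI2-4A cells. With probes averaged per gene CTBP1 differed by -0.02 between RAI2 and RAI2-4A, and RUNX2 from vector by 0.11 in RAI2 and 0.14 in RAI2-4A cells. Without the 3 arrays that stood apart RUNX2 differed from vector by 0.14 in RAI2 and 0.31 in RAI2-4A cells. The same fit gave 0.43 for ITGAV in RAI2 cells.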

How the data were processed

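The authors deposited a table of linear probe intensity values, with 47323 probes and 9 arrays. Medians were 98.5 to 99.5, so the values were taken as normalized. How is not given in the sources used here. Per the submitters' processing notes, BeadStudio and limma were used, versions not given. Another deposited table was not used, because its 18 columns match no single sample's labels.

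From the intensities, 3 probes with a missing value were dropped, background was corrected per array with normexp (saddle-point, offset 50) and log2 was taken. The offset shrinks differences of dim probes. A probe was above background when its log2 intensity exceeded the array's mode by 1.64 SD, the SD taken below the mode (density bandwidth 0.03). Probes above background on at least 3 arrays were kept. A gene was its brightest kept probe. Probe genes came from the platform's annotation, which gave 1 symbol to 30113 probes (30074 of them matched to a RefSeq gene of GRCh38.p14), and to 17210 probes several symbols or none.

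A linear model over 9 arrays (6 residual degrees of freedom) was fitted with limma 3.58.1 in R 4.3.3, two-sided, with Benjamini-Hochberg adjustment over 12438 genes per contrast at 0.05, and was tested on simulated data. No correction was made over the 3 contrasts. SEs and confidence intervals use the moderated variance of each gene, drawn toward that of all genes, which adds to the 6 degrees of freedom. The reported fit had no pairing or block. Same-numbered RAI2 and RAI2-4A arrays correlated in their deviations from group means (0.469, 0.581 and 0.299). By a rule requiring every pair to exceed 0.1 they were treated as paired in an alternative fit only, from the data and not the labels. Same-numbered arrays of vector and RAI2 did not meet that rule (-0.343, -0.420 and 0.277), nor did those of vector and RAI2-4A (-0.443, -0.569 and 0.376). Some arrays of unlike number correlated as strongly, such as vector replicate 2 and RAI2-4A replicate 3 (0.536). Number of arrays limits the precision.

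Values by array are given for FST, for members called and for the 6 largest differences per comparison. Of each wider list, genes called and the 2 largest differences per comparison could be named. NOG, BMP4 and the second probe of PMEPA1 were added after their values were seen. Members, lists and the choice of the 3 arrays that stood apart were made with earlier results of these data known. Alternatives changed the background step, the scaling, the probe filter or the choice of probe, the variance model, the weights or groups of arrays, the replicate block or the arrays included.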

Additional observations from a re-analysis of the deposited data

Results flagged for a closer look

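The effects of RAI2 and RAI2-4A against the same vector arrays differed for FST, by -0.99 on the log2 scale (RAI2 minus RAI2-4A; limma, adjusted p = 0.0438 over 12438 genes), with RAI2 lower than every RAI2-4A array in 3 of 3 arrays. Vector cancels in this difference, so it is the same comparison of RAI2 with RAI2-4A as above and not a further result. Its call held in 12 of 23 alternative settings. Groups of 3 arrays are too small for the test of single outlying samples.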

How the results depend on the processing

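Over the alternatives, the number of members called stayed at 0 for RAI2-4A against vector. For RAI2 against vector it was 0, and 1 (FST) with array weights and without the 3 arrays that stood apart, ranging from 0 to 1 over arrays left out singly. For RAI2 against RAI2-4A it was 1 (FST), and 0 under the stricter filter, a background set to each array's mode, every probe tested on its own, probes averaged per gene and the trended, robust variance, ranging from 0 to 1 over arrays left out singly. The replicate block over all 9 arrays left these counts at 0, 0 and 1 (adjusted p for FST between RAI2 and RAI2-4A 0.0429, limma), and the fit of RAI2 and RAI2-4A only gave 1 without the block and with it (the latter added after seeing the data). With fewer probes or arrays in a fit the power differs by construction, and otherwise the cause was not tested. Over all genes, calls ranged from 21 to 88 (52 in the reported fit) for RAI2 against vector, 5 to 25 (11) for RAI2-4A against vector and 25 to 98 (47) between RAI2 and RAI2-4A. Genes outside the threshold changed sign in some settings. Without the 3 arrays that stood apart TGFB2 gave 0.039 (RAI2 against vector) and 0.10 (RAI2 against RAI2-4A), and MSX1 gave -0.026 in the latter. For RAI2-4A against vector FST gave -0.19, SMAD6 -0.016, NEO1 0.0076 and LTBP3 0.066. With array weights FST gave -0.048 and SMAD6 -0.049 for RAI2-4A against vector. With probes averaged per gene PMEPA1 gave -0.015 for RAI2-4A against vector and SMAD7 -0.020 for RAI2 against RAI2-4A. With arrays left out singly, RAI2 against vector ranged from -0.99 to 0.18 for TGFB2, -0.053 to 0.24 for LTBP2 and -0.27 to 0.04 for RGMA. RAI2-4A against vector ranged from -0.087 to 0.26 for FST, -0.84 to 0.34 for TGFB2, -0.13 to 0.14 for SMAD6, -0.20 to 0.07 for ACVR1, -0.42 to 0.14 for LTBP3 and -0.18 to 0.035 for RGMB. RAI2 against RAI2-4A ranged from -0.37 to 0.24 for TGFB2, -0.031 to 0.12 for SMAD7 and -0.33 to 0.069 for HES1. The stricter filter kept 26 members and dropped TGFB2. A block for slides could not be fitted, since slides are not given in these sources. Probes near background, such as TGFB3 and SMAD6, have only a narrow range above it.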
